A study of Mus musculus with 30 samples.

Results

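The comparison set multinucleated osteoclast cultures of 6-month Terc-/- mice whose titles carry the number 519 (set 519 KO) against multinucleated osteoclast cultures of 20-month wild-type mice (WT). Its members were chosen by sample title and comprise 6 of the 30 libraries of the series, 3 in each group. The study asked how loss of Terc, the RNA template of telomerase, bears on osteoclasts from donors of different ages. Total RNA went through oligo(dT) selection and was sequenced on an Illumina platform, and the deposited values are counts per gene. Set 519 KO replicates 2, 3 and 4 carried the Terc-/- genotype on the C57BL/6J strain and came from donors of 6 months. WT replicates 1, 2 and 4 came from C57BL/6J donors of 20 months. In both groups bone marrow-derived macrophages grew in medium with 10% serum, 25 ng/ml of M-CSF and 100 ng/ml of RANKL until large multinucleated cells appeared, and the labels give no number of days. The labels do not explain the number 519, and they do not say whether replicates are separate animals or cultures, so p-values reflect no more than the spread among these libraries, which may be technical. Genotype, donor age and title set differ together between the groups, so their parts in any difference cannot be told apart.

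Osteoclasts form when precursors of the macrophage lineage fuse under M-CSF and RANKL, and they dissolve bone with acid pumped by a V-type proton ATPase and with proteases such as cathepsin K. Telomerase adds repeats to chromosome ends, and in mice without Terc the telomeres shorten over generations. The cell cycle inhibitors encoded by Cdkn2a and Cdkn1a are widely used as markers of cellular ageing and of p53 activity.

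The set 519 KO libraries held 11628082, 6067219 and 12222575 counts, and the WT libraries held 17765784, 17772563 and 19806201. All 3 set 519 KO libraries were thus shallower than every WT library. Mitochondrial transcripts took 3.05 to 3.07% of counts in set 519 KO libraries and 3.79 to 4.02% in WT libraries. The 2 groups lay apart on the first principal component, at -30.3 to -28.2 for set 519 KO and 45.6 to 48.8 for WT, and replicates lay close together. Terc had 0 counts in all 3 set 519 KO libraries and 0, 1 and 0 counts in WT libraries, so it checks nothing about the genotype at this depth. Tert, the catalytic subunit of telomerase, had 0, 1 and 1 counts in set 519 KO libraries and 7, 7 and 9 counts in WT libraries, and its fall (2.37 on the log2 scale, adjusted p 0.022) did not pass without set 519 KO replicate 2 or replicate 4. Levels below are counts per 1000000 scaled by TMM (CPM), each change is the log2 fold change of set 519 KO over WT with its standard error (SE), and calls are adjusted p under 0.05 in edgeR's quasi-likelihood test. Where groups are said not to overlap, this describes the gene named. The share of all genes without overlap was not counted, and 52.5% of genes were called.

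Of 15310 genes tested, 8040 (52.5%) differed between set 519 KO and WT cultures, 4041 (26.4%) higher and 3999 (26.1%) lower in set 519 KO. By at least 2-fold, 1857 genes (12.1%) differed, 727 (4.75%) higher and 1130 (7.38%) lower. When the 6 libraries were thinned to the smallest total, 1168 of 11809 genes tested passed the 2-fold rule. The median over all genes was -0.01. The change followed transcript GC content: its median was -0.25 over the 3057 genes of lowest GC content (29.6 to 43.7%) and 0.32 over the 3057 of highest (55.2 to 75.5%), against medians of -0.005 and 0.004 over the same genes for 20-month WT over 6-month WT. For set 519 KO over 6-month WT these medians were -0.248 and 0.325. They were -0.222 and 0.26 for 6-month KO libraries without the number 519 over 20-month WT. A refit with GC and length offsets is given below beside many of the results it moved, and the part of GC content in the lists was not tested further.

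**Figure D1:**
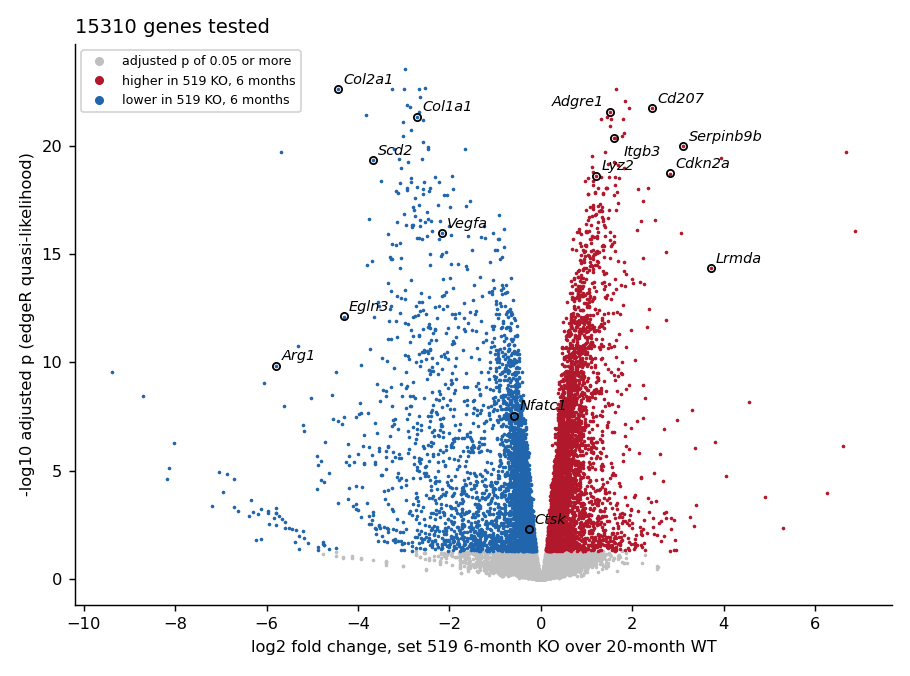
Each point is a gene, with the log2 fold change of set 519 6-month KO over 20-month WT on the x axis and -log10 of the adjusted p on the y axis. Red points (4041) were higher and blue points (3999) lower in set 519 KO, and among the labelled genes Cdkn2a and Lrmda lie far to the right while Arg1, Col2a1 and Egln3 lie far to the left.

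The osteoclast programme was present in both groups. Of 23 genes of resorption and acid secretion, 14 were higher and 6 lower in set 519 KO, with a median of 0.28. Their summed level was 38510 to 40140 CPM in set 519 KO libraries and 30520 to 32250 CPM in WT libraries, with no overlap. Itgb3 (chr11:104608000-104670476), the beta subunit of the vitronectin receptor that anchors osteoclasts to bone, had 465, 468 and 470 CPM in set 519 KO and 150, 152 and 160 CPM in WT libraries. All 3 set 519 KO libraries were thus above every WT library, and Itgb3 rose by 1.61 ± 0.06 (SE; 3.04-fold, adjusted p 4.5e-21). Ckb, brain-type creatine kinase, had 5397, 5370 and 5012 CPM in set 519 KO and 1947, 2111 and 1977 CPM in WT libraries, a rise of 1.39 ± 0.09 (adjusted p 8.7e-15). Acp5, tartrate-resistant acid phosphatase, had 5974, 5959 and 5734 CPM in set 519 KO and 3955, 3851 and 4114 CPM in WT libraries, a rise of 0.57 ± 0.08. Both groups were also well apart for Calcr, the calcitonin receptor, which rose by 0.68 ± 0.08 to 82.9, 82.3 and 92.1 CPM in set 519 KO, against 49.2, 53.7 and 58.1 CPM in WT libraries.

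Cathepsin K was slightly lower in set 519 KO. Ctsk (chr3:95499256-95509362), the main collagen-degrading protease of osteoclasts, had 5860, 5849 and 5642 CPM in set 519 KO and 6620, 6843 and 7322 CPM in WT libraries. The groups did not overlap and Ctsk fell by 0.26 ± 0.08 (adjusted p 0.0048). Car2, a carbonic anhydrase that provides the protons osteoclasts secrete, fell by 0.79 ± 0.08 to 58.1, 60.9 and 66.1 CPM in set 519 KO, against 105, 106 and 110 CPM in WT libraries. Mmp9, a gelatinase, had 13320, 13360 and 12590 CPM in set 519 KO and 10300, 10740 and 11010 CPM in WT libraries, a rise of 0.29 ± 0.06 that did not pass with GC and length offsets (0.08, adjusted p 0.27). Of the other members, Mmp14 and Rufy4 fell by 0.64 and 0.68. Atp6v0d2 and Slc9b2 fell by 0.29 and 0.15 but did not pass with GC and length offsets (-0.061 and 0.124), and Slc9b2 also did not pass when single libraries other than set 519 KO replicate 4 and WT replicate 2 were left out. Itgav, Src and Atp6v1c1 did not pass the test (0.02, 0.04 and -0.03), and with the offsets Itgav was higher (0.296) and Src lower (-0.242).

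Of 18 subunits of the V-type proton ATPase, 11 were higher and 2 lower (median 0.22), and with GC and length offsets 14 were higher and 0 lower (median 0.32). Atp6v0a1, a subunit of its membrane sector, had 225, 216 and 221 CPM in set 519 KO and 99.8, 97.0 and 102 CPM in WT libraries, a rise of 1.15 ± 0.05. Tcirg1, the a3 subunit that osteoclasts need for bone resorption, rose by 0.66 ± 0.05. Of 17 fusion genes, 9 were higher and 4 lower (median 0.34). Dcstamp, a membrane protein required for fusion, had 526, 525 and 508 CPM in set 519 KO and 345, 402 and 390 CPM in WT libraries, a rise of 0.46 ± 0.06, and its partner Ocstamp did not pass (0.14 ± 0.08, adjusted p 0.13). The 4 that fell were Atp6v0d2, Mst1r, Sh3pxd2a and the metalloprotease Adam12 (Atp6v0d2 not with the offsets). Adam12 had 0.0904, 0 and 0.171 CPM in set 519 KO and 3.21, 5.31 and 4.75 CPM in WT libraries.

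Regulators of osteoclast formation were split. In the list of RANK signalling and osteoclast transcription factors 10 of 29 genes were higher (34.5%) and 9 lower (31.0%), with a median of -0.05. Over all genes 26.4% were higher and 26.1% lower. Nfatc1, the transcription factor that drives osteoclast formation, had 241, 251 and 240 CPM in set 519 KO and 383, 353 and 357 CPM in WT libraries, a fall of 0.58 ± 0.07 (adjusted p 2.9e-08). Fos, which acts upstream of Nfatc1, fell by 0.97 ± 0.06. The activating receptor Trem2 and its adaptor Tyrobp rose by 1.59 ± 0.08 and 1.38 ± 0.07. Trem2 had 550, 546 and 537 CPM in set 519 KO and 180, 180 and 182 CPM in WT libraries. Of 14 repressors of osteoclast formation, 11 were higher and 1, Cyld, lower, with a median of 0.85. The call of Cyld ended with GC and length offsets (-0.087, adjusted p 0.23). Irf8, a transcription factor of monocytes that restrains osteoclast formation, rose by 0.89 ± 0.07, and the helix-loop-helix inhibitors Id1 and Id2 rose by 1.15 ± 0.14 and 1.35 ± 0.08.

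**Figure D2:**
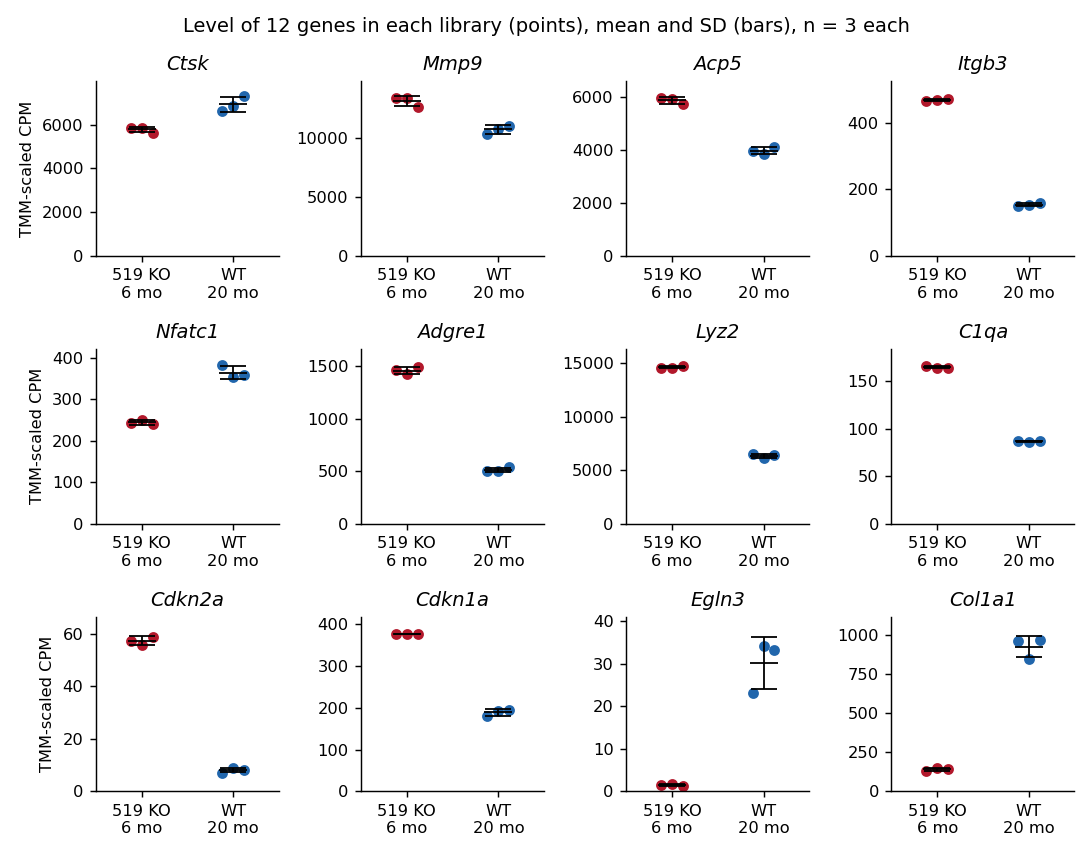
Levels of 12 genes in TMM-scaled CPM, with 6-month set 519 KO libraries in red on the left and 20-month WT libraries in blue on the right of each panel; points are libraries and bars give the mean and SD (n = 3 each). Groups do not overlap in any panel: set 519 KO libraries are higher for Mmp9, Acp5, Itgb3, Adgre1, Lyz2, C1qa, Cdkn2a and Cdkn1a, and lower for Ctsk, Nfatc1, Egln3 and Col1a1. The 12 genes were chosen for display, and the share of all genes without overlap was not counted.

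Macrophage genes were higher in set 519 KO cultures. Of 21 macrophage and monocyte markers tested, 14 were higher and 3 lower (Cx3cr1, Adgre4 and Fcgr1, the last not without WT replicate 1 or set 519 KO replicate 2 or 3), with a median of 0.50, and their summed level was 22130 to 22270 CPM in set 519 KO and 10980 to 11420 CPM in WT libraries. Adgre1, which encodes the F4/80 antigen of mature macrophages, had 1461, 1423 and 1490 CPM in set 519 KO and 501, 497 and 537 CPM in WT libraries. That is a rise of 1.51 ± 0.05 (2.85-fold, adjusted p 2.7e-22) with no overlap. Lyz2, lysozyme of myeloid cells, had 14580, 14540 and 14710 CPM in set 519 KO and 6514, 6158 and 6398 CPM in WT libraries, a rise of 1.20 ± 0.05. In the 2 groups of 1-month WT cultures the summed markers averaged 33030 and 25420 CPM, against 22190 CPM in set 519 KO. Adgre1 averaged 1661 and 1576 CPM in these 1-month WT groups, and Lyz2 averaged 23560 and 14690 CPM. The second value of each such pair, here and below, is of the group with D1gaiweiBP in its titles. Its libraries had 17522, 13791 and 15098 Xist counts and 0 counts of Ddx3y, Eif2s3y, Kdm5d and Uty. The other 1-month WT group had 0 Xist counts and counts of all these Y-linked genes, so the pair differs in sex-linked transcripts as well as title. Of 17 genes of complement C1q and tissue macrophages, 10 were higher and 2 lower (median 0.47). C1qa, a chain of the C1q complement complex, had 167, 164 and 164 CPM in set 519 KO and 87.0, 86.5 and 87.3 CPM in WT libraries, and C3 rose by 1.63 ± 0.07. Axl, a receptor kinase for apoptotic cells, fell by 1.99 ± 0.10 while its ligand Gas6 rose by 1.49 ± 0.08. In cultures measured as a whole, fewer cells of a type and less RNA per cell cannot be told apart.

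Lysosomal genes were nearly all higher in set 519 KO. All 30 passed the test, 28 higher and 2, Ctsc and Ctsh, lower, with a median of 0.53. Their summed level was 39960 to 40250 CPM in set 519 KO and 23360 to 23780 CPM in WT libraries. It averaged 36310 and 34910 CPM in the 2 groups of 1-month WT cultures. Ctsd (chr7:142375911-142388038), the lysosomal aspartic protease, had 4866, 4920 and 4805 CPM in set 519 KO and 1604, 1568 and 1580 CPM in WT libraries, a rise of 1.62 ± 0.07 (3.07-fold, adjusted p 6.6e-20). Ctsb, a cysteine protease, had 8753, 8789 and 8932 CPM in set 519 KO and 4011, 4066 and 4119 CPM in WT libraries, a rise of 1.12 ± 0.05. Gla, which encodes alpha-galactosidase A, had 186, 176 and 184 CPM in set 519 KO and 105, 102 and 105 CPM in WT libraries, a rise of 0.81. For Ctsd, Ctsb and Gla every set 519 KO library was above every WT library. The promoter window of Ctsd is printed because lysosomal genes are known targets of MiT/TFE transcription factors, which bind an E-box of the letters TCACGTG. RefSeq windows (GRCm38.p6) run from 250 bases before to 50 bases after the gene start. On either strand, 7 of the 23 lysosomal genes with a window held TCACGTG (30.4%), against 4.29% of 27025 genes. The windows of Ctsd (chr7:142387778-142388077, minus strand) and Gla (chrX:134600956-134601255, minus strand), the pair with the largest rise among those 7, follow with every match in capitals. Where TCACGTGA is in capitals, matches on the 2 strands overlap.
Ctsd: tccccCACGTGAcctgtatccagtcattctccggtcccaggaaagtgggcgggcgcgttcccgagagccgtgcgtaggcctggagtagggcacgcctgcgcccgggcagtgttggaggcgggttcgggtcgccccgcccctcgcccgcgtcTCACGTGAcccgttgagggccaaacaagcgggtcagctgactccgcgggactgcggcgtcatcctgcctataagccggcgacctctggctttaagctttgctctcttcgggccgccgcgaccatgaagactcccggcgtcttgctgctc
Gla: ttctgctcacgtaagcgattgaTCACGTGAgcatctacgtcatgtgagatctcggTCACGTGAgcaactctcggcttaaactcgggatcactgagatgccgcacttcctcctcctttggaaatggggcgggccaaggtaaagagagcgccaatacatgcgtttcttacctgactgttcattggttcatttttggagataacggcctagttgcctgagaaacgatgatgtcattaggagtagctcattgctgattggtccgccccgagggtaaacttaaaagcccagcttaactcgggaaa

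Genes of the NRF2 antioxidant response were higher too. Of 29 tested, 26 were higher, 10 of them by at least 2-fold, and 1, Gstp1, was lower, with a median of 0.77. Gstp1 did not pass without WT replicate 1 or set 519 KO replicate 2 or 4. Hmox1, the heme oxygenase that breaks down heme, had 844, 876 and 856 CPM in set 519 KO and 224, 256 and 247 CPM in WT libraries, a rise of 1.82 ± 0.07 (3.54-fold, adjusted p 2.6e-21) with no overlap. Hmox1 averaged 1264 and 1077 CPM in the 2 groups of 1-month WT cultures. Nqo1, a quinone reductase, had 24.8, 21.8 and 24.0 CPM in set 519 KO and 5.68, 7.24 and 9.30 CPM in WT libraries. Fth1 and Ftl1, the chains of the iron store ferritin, rose by 1.62 ± 0.07 and 1.20 ± 0.09, and both also have near-identical copies that can take reads. Prdx1, a peroxiredoxin, had 1678, 1650 and 1712 CPM in set 519 KO and 688, 723 and 728 CPM in WT libraries, a rise of 1.24. The antioxidant response element TGACNNNGC that NRF2 binds was found on either strand in 10 of 25 of these genes with a window, against 14.0% of all 27025. The window of Prdx1 (chr4:116685349-116685648, plus strand), which rose most among the 10 after Gsta3, is printed with its match, on the reverse strand, in capitals.
Prdx1: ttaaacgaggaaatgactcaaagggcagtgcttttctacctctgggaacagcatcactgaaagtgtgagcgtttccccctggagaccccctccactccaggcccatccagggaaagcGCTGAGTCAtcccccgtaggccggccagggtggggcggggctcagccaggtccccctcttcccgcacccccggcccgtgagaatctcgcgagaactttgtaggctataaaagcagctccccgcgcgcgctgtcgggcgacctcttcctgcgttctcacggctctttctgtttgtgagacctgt

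Cdkn2a was among the genes with the largest rise. The gene (chr4:89274471-89294653, minus strand) encodes p16 and p19Arf, which counts per gene cannot separate. It had 57.3, 55.5 and 58.9 CPM in set 519 KO and 7.17, 8.84 and 8.10 CPM in WT libraries, so that every set 519 KO library was far above every WT library. The rise was 2.83 ± 0.12 (7.13-fold, adjusted p 1.9e-19). Over all 10 groups of the series the highest Cdkn2a levels were those of 1-month set 519 KO cultures, at 72.5 ± 13.3 CPM, and of 6-month set 519 KO cultures, at 57.3 ± 1.69 CPM (SD, n = 3 each), whose libraries do not overlap. The 2 lowest were 20-month WT cultures, at 8.04 ± 0.836 CPM when multinucleated and 4.79 ± 0.735 CPM at 2 days. Both groups of 1-month WT cultures lay between, with means of 30.6 and 31.5 CPM. KO cultures without the number 519 were near them, with means of 33.2 CPM at 1 month and 37.7 CPM at 6 months. Cdkn1a, which encodes p21, had 378, 376 and 377 CPM in set 519 KO and 180, 193 and 194 CPM in WT libraries, a rise of 1.00 ± 0.06 (adjusted p 1e-16). It averaged 555.7 and 240.2 CPM in the 2 groups of 1-month WT cultures.

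The wider lists around these genes did not move one way. Of 18 cyclin-dependent kinase inhibitors and senescence genes, 8 were higher and 8 lower, with a median of -0.04 (0.02 with GC and length offsets): Cdkn1c and Cdkn2b rose by 1.33 and 0.80, while Cdkn1b fell by 0.93. Hmgb2 and Lmnb1, chromatin and lamina genes whose level drops in senescent cells, fell by 1.06 and 0.87. Of 38 p53 targets, 19 were higher and 12 lower (median 0.22). Gdf15, a stress-induced cytokine, had 9.04, 10.7 and 8.80 CPM in set 519 KO and 2.04, 2.36 and 2.35 CPM in WT libraries, a rise of 2.05 ± 0.20. Phlda3 and Bbc3, which promote cell death, rose by 1.22 ± 0.13 and 1.15 ± 0.10, and Mdm2, which degrades p53, rose by 0.43 ± 0.05. Ptpn14 fell by 2.46 ± 0.22.

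Cell cycle and DNA repair genes were lower in set 519 KO. Of 42 cell cycle genes, 28 were lower and 5 higher (Ccnd1, Cdt1, Pcna, Rrm2 and E2f1), with a median of -0.37. With GC and length offsets 3 were higher, and Cdt1 and E2f1 did not pass (0.013 and 0.091). Rrm2 did not pass with no filter, nor without WT replicate 1, WT replicate 4 or set 519 KO replicate 2. Mki67, a marker of dividing cells, had 251, 255 and 264 CPM in set 519 KO and 419, 477 and 417 CPM in WT libraries, a fall of 0.77 ± 0.09 (adjusted p 1.2e-08). Ccnd1, the cyclin of early cell cycle entry, had 371, 387 and 383 CPM in set 519 KO and 127, 153 and 125 CPM in WT libraries, a 2.82-fold rise. Of 34 genes of the DNA damage response and repair, 22 were lower and 3 higher (Xrcc1, Xrcc3 and H2afx), with a median of -0.35. With GC and length offsets 15 were lower and 0 higher (median -0.21), with Xrcc1 at 0.042, Xrcc3 at 0.231 and H2afx at -0.096. Xrcc1 also did not pass with thinned counts or no filter, and H2afx did not pass with thinned counts or without WT replicate 4. Chek1, a checkpoint kinase, had 4.70, 6.92 and 6.58 CPM in set 519 KO and 13.3, 14.5 and 10.7 CPM in WT libraries. Of 27 genes of telomerase and telomere maintenance, 13 were lower and 2, Acd and Ten1, higher (median -0.21). Dkc1, the protein that binds and stabilises Terc, had 37.0, 42.7 and 37.6 CPM in set 519 KO and 70.0, 72.8 and 73.5 CPM in WT libraries, a fall of 0.90 ± 0.07 (adjusted p 1.8e-13).

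Interferon-stimulated genes were moderately higher. Of 46 tested, 28 were higher, 4 of them by at least 2-fold, and 1, Gbp7, was lower, with a median of 0.37 and 17 not passing. The summed level was 3414 to 3484 CPM in set 519 KO and 2212, 2213 and 2833 CPM in WT libraries, so WT replicates spread more than set 519 KO replicates. Irf7, the transcription factor that amplifies interferon production, had 91.0, 92.2 and 88.1 CPM in set 519 KO and 64.3, 43.8 and 45.6 CPM in WT libraries, a rise of 0.82 ± 0.14 (adjusted p 8.3e-06). The chemokine gene Cxcl10 did not pass, at -0.13 ± 0.27 (adjusted p 0.73). Bst2, which tethers virus particles to the cell surface, had 179, 194 and 184 CPM in set 519 KO and 87.2, 75.8 and 67.8 CPM in WT libraries, a rise of 1.27 ± 0.11. The interferon-stimulated response element, searched as GAAA, any 2 bases and GAAA, lay on either strand of 23 of 35 such genes with a window (65.7%), against 3.99% of all 27025. The window of Bst2 (chr8:71537423-71537722, minus strand), the gene with the largest rise among the 23, holds 2 overlapping matches, in capitals.
Bst2: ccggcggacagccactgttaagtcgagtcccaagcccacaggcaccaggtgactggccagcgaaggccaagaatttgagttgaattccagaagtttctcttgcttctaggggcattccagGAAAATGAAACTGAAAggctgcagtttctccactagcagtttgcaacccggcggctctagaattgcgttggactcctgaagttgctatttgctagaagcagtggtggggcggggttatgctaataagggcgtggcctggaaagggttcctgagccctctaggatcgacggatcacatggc

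Of 13 genes of MHC class I antigen presentation, 12 were higher and 0 lower (median 0.63), and with GC and length offsets 10 were higher and 0 lower (median 0.34). B2m, the invariant chain of class I molecules, had 1642, 1652 and 1594 CPM in set 519 KO and 933, 842 and 939 CPM in WT libraries, a rise of 0.85 ± 0.08. Class II genes went both ways, with 5 of 12 higher and 5 lower, and with thinned counts 2 of the 9 tested were higher. H2-Ab1, a class II chain, was low in both groups, at 3.17, 2.08 and 1.88 CPM in set 519 KO and 10.1, 8.58 and 9.06 CPM in WT libraries, a fall of 1.94 ± 0.20. Reads of these MHC genes can be shared with close relatives. No count of Ifnb1, Ifna1 or Ifng was found in any of the 6 libraries, which allows up to 3 counts in each.

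Cytokine genes went both ways. Of 41 inflammatory cytokines and genes of the senescence-associated secretory phenotype, 19 were higher and 10 lower, 6 and 9 of them by at least 2-fold. The chemokines Ccl3 and Ccl4 rose by 2.24 ± 0.11 and 2.74 ± 0.16. Ccl3 had 57.4, 59.2 and 60.2 CPM in set 519 KO and 13.4, 11.8 and 12.1 CPM in WT libraries. Ccl2, which attracts monocytes, had 58.9, 61.2 and 65.9 CPM in set 519 KO and 17.5, 25.8 and 16.2 CPM in WT libraries, a rise of 1.65 ± 0.14. Csf1, the gene of M-CSF, fell by 1.59, and Timp1 by 1.56 ± 0.12.

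**Figure D3:**
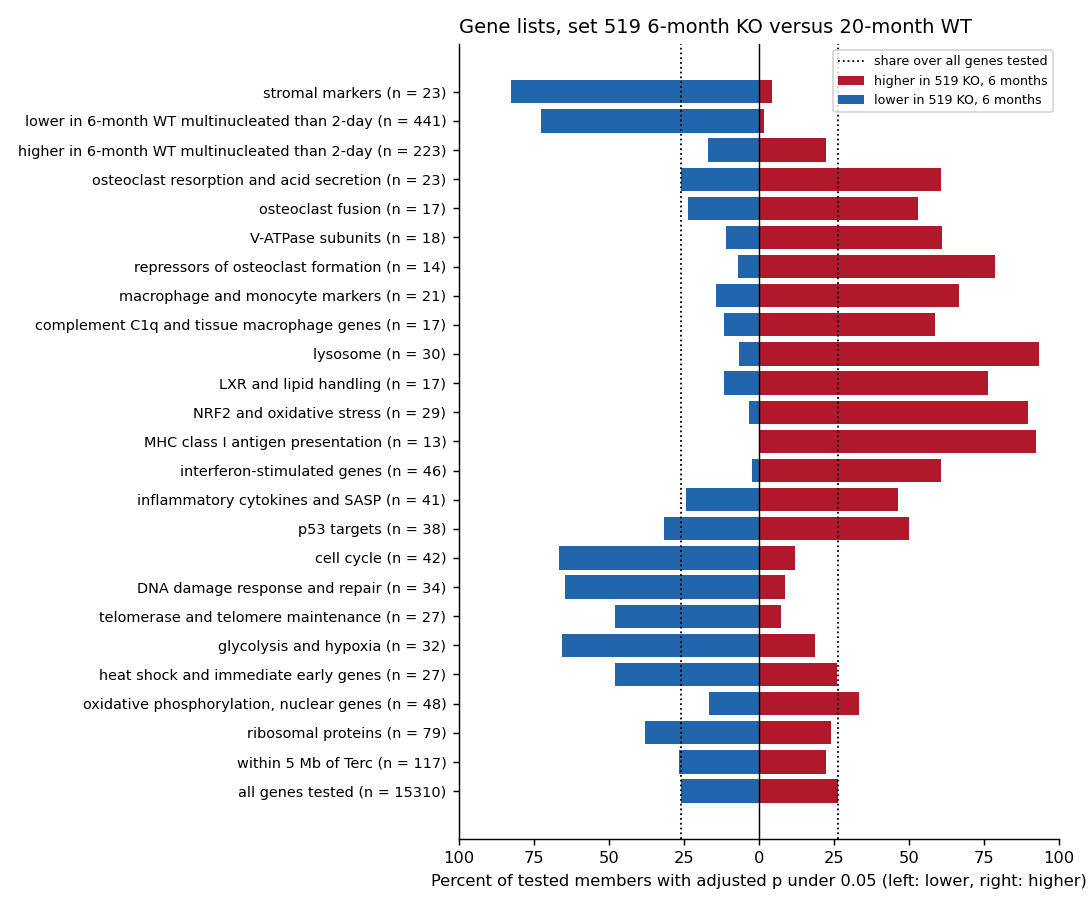
Percent of the tested members of each gene list that were higher (red, right) or lower (blue, left) in set 519 6-month KO than in 20-month WT at an adjusted p under 0.05; the number tested is in brackets. Dotted lines mark the shares over all genes tested, 26.4% higher and 26.1% lower: the lysosome, NRF2, MHC class I and repressor lists lie far past the right line, and the stromal, 2-day culture, cell cycle, DNA repair and hypoxia lists far past the left line.

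Hypoxia and glycolysis genes were lower in set 519 KO, with 21 of 32 lower and 6 higher (median -0.50). Egln3 (chr12:54178981-54203860, minus strand), a prolyl hydroxylase induced by hypoxia-inducible factor, had 1.54, 1.73 and 1.37 CPM in set 519 KO and 23.1, 34.2 and 33.3 CPM in WT libraries, a fall of 4.32 ± 0.34 (19.9-fold, adjusted p 7.6e-13). Vegfa, the vascular growth factor, had 27.0, 23.7 and 23.8 CPM in set 519 KO and 92.0, 122 and 124 CPM in WT libraries, a fall of 2.17 ± 0.12. Bnip3, a mitophagy receptor, fell by 1.94 ± 0.15, and Ankrd37 by 1.52 ± 0.22. In both Egln3 and Vegfa the WT replicate 1 was the lowest of the WT libraries, and still far above the set 519 KO libraries. In the 2 groups of 1-month WT cultures Egln3 averaged 1.616 and 25.65 CPM, and Vegfa averaged 22.13 and 123.9 CPM. The glycolytic enzymes Pgk1 and Ldha, with 894, 897 and 894 CPM for Pgk1 in set 519 KO and 1490, 1547 and 1594 CPM in WT libraries, fell by 0.79 and 0.51. Hk2 fell by 1.44, while its relative Hk3 rose by 1.01. Pgk1, Ldha, Hk2 and Hk3 were picked after their values were seen.

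Nuclear genes of oxidative phosphorylation had 16 of 48 higher (33.3%) and 8 lower (16.7%), against 26.4% and 26.1% of all genes. Their median was 0.06 (0.015 with GC and length offsets). The 8 lower genes became 13 with thinned counts or with GC and length offsets, and 5 without set 519 KO replicate 2 or replicate 3. Of 13 mitochondrial transcripts 2 were higher and 5 lower (median -0.12), but with GC and length offsets 8 were higher and 0 lower (median 0.21), so no direction is given for them. In lipid metabolism, 13 of 17 genes of LXR and lipid handling were higher and 2 lower, and 15 of 28 of cholesterol synthesis were higher and 3 lower. Gpnmb, a glycoprotein of lipid-laden macrophages and osteoclasts, had 11590, 11570 and 11320 CPM in set 519 KO and 4472, 4350 and 4307 CPM in WT libraries, a rise of 1.39 ± 0.06. The desaturase genes Scd2 and Scd1 fell by 3.68 ± 0.15 and 3.56 ± 0.26. Scd2 had 19.1, 13.3 and 22.4 CPM in set 519 KO and 253, 234 and 244 CPM in WT libraries.

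Genes of fibroblasts and their matrix were lower in set 519 KO. Of 23 stromal markers, 19 were lower in set 519 KO, all by at least 2-fold, 1 (Dcn) was higher, and Lum, Thy1 and Tagln did not pass. Thy1 was higher with DESeq2 (1.18, adjusted p 0.047) and without set 519 KO replicate 4. Their median was -2.53, and their summed level was 1316 to 1387 CPM in set 519 KO and 6436 to 7337 CPM in WT libraries. Col1a1 (chr11:94936224-94953042), a chain of type I collagen, had 133, 150 and 141 CPM in set 519 KO and 962, 848 and 967 CPM in WT libraries, a fall of 2.72 ± 0.09 (6.57-fold, adjusted p 4.6e-22). Col3a1, the type III collagen chain, had 26.2, 27.7 and 29.1 CPM in set 519 KO and 246, 244 and 278 CPM in WT libraries, and Pdgfra, a receptor of fibroblasts, had 7, 1 and 4 counts in set 519 KO and 84, 74 and 77 counts in WT libraries. Summed stromal transcripts were thus present in all 6 libraries and higher in each 20-month WT library than in any set 519 KO library. In the 2 groups of 1-month WT cultures the sum averaged 1381 and 8720 CPM, against 1356 CPM in set 519 KO. Col1a1 averaged 134.6 and 1362 CPM in these 1-month WT groups. Matrix genes outside the list fell beside the stromal markers, among them Ogn, Ccn1 and Sulf1, by 4.49, 3.83 and 3.77. The part of stromal cells in these falls was not tested.

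A set of 441 genes (2.88% of those tested) was lower in 6-month WT multinucleated than in 6-month WT 2-day cultures, with an adjusted p under 0.05 and by at least 2 on the log2 scale. Of them 321 were lower in set 519 KO than in 20-month WT and 8 were higher, with a median of -2.31, and their summed level was 1050 to 1120 CPM in set 519 KO and 5224 to 5743 CPM in WT libraries. In thinned libraries 187 of these genes could be tested and 178 were lower. The 8 higher ones became 4 or 5 with thinned counts, in the 6-library fit, or without WT replicate 2, WT replicate 4 or set 519 KO replicate 2. By the same rule 223 genes (1.46%) were higher in multinucleated cultures. Of these, 50 were higher (22.4%) and 38 lower (17.0%) in set 519 KO, against 26.4% and 26.1% of all genes. Their median was 0.06 (0.018 with GC and length offsets), and with thinned counts 23 of 105 tested were lower. Both sets were chosen on libraries outside this comparison. In all, 5 of the 23 stromal markers (21.7%) are among the 441, where they make up 1.13% of that set. Without the 441 genes, 7712 of 14869 genes passed the test and 1539 passed the 2-fold rule.

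Several defining markers of other blood cells were not detected. Ly6g, Elane, Cd3e, Nkg7, Ms4a1 and Siglech had 0 counts in all 6 libraries. Other markers of these cells had counts, so the cells cannot be called absent. Trac had 20, 21 and 12 counts in set 519 KO and 29, 42 and 51 in WT libraries. Zbtb46 had 21, 15 and 31 counts against 54, 61 and 57, and Cd79a 2, 1 and 7 against 4, 6 and 8. Jchain had 1, 1 and 1 counts against 4, 10 and 4, and Camp 1, 1 and 4 against 1, 2 and 0. These counts are not scaled for depth, and every set 519 KO library was shallower than every WT library. No direction is read from them. Only 4 of 14 neutrophil and acute phase genes had enough counts to be tested, and Lcn2 and Saa3 were higher among them. Of 3 T and NK, 3 B and plasma and 2 mast cell genes tested, 0 were higher and 1, 1 and 2 lower, and the summed level of each list was under 10 CPM in every library. The 2 mast cell calls became 0 without set 519 KO replicate 2 or replicate 4 and 1 without WT replicate 2 or replicate 4. The B and plasma call ended with thinned counts or without the genes of 2-day cultures. Summed dendritic markers were at 248.2 to 273 CPM in set 519 KO and 128.3 to 157.3 CPM in WT libraries, and endothelial markers at 175.7 to 188.9 CPM in set 519 KO and 90.7 to 97.4 CPM in WT libraries. Summed neutrophil and acute phase markers were at 35.9 to 38.2 CPM in set 519 KO and 19.5 to 22.9 CPM in WT libraries, and erythroid and platelet markers at 41.2 to 47.0 CPM in set 519 KO and 15.1 to 17.8 CPM in WT libraries. Among dendritic markers 2 of 8 were higher (Itgax and Bst2) and 1, Fscn1, lower, while Zbtb46 and Xcr1 did not pass. Bst2, also counted above as interferon-stimulated, made up most of the dendritic sum in set 519 KO libraries. Pf4 was the only erythroid or platelet gene of 4 tested that passed in the reported fit, at 46.3, 41.0 and 42.0 CPM in set 519 KO and 13.4, 17.0 and 16.2 CPM in WT libraries. Kdr, Eng and Vwf were higher among 7 endothelial markers, and Pecam1 and Cdh5 did not pass, though Cdh5 was lower with RLE scaling, DESeq2, the 6-library fit and GC and length offsets, and without set 519 KO replicate 4. The part of these cells in other results was not tested. None of 5 sex-linked genes passed (2 were higher with GC and length offsets), and Y-linked genes had counts in all 6 libraries.

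Other lists held smaller or mixed changes, to be read beside the shares over all genes, 26.4% higher and 26.1% lower. NF-kB feedback genes had 10 of 19 higher and 7 lower (median 0.257), but 7 higher and 6 lower (median 0.085) with GC and length offsets. The unfolded protein and integrated stress response had 8 of 26 higher and 12 lower (6 and 10 with the offsets). Heat shock and immediate early genes had 7 of 27 higher (3 with GC and length offsets) and 13 lower, among them Egr1, an immediate early transcription factor, which fell by 3.34 ± 0.19. Ribosomal protein genes had 19 of 79 higher and 30 lower, with a median of -0.08 (-0.18 with GC and length offsets), and their near-identical pseudogenes make single members uncertain. Podosome and cytoskeleton genes had 12 of 26 higher and 6 lower, matrix proteases 7 of 16 higher and 7 lower, histones 6 of 20 higher and 1 lower, iron handling genes 9 of 15 higher and 4 lower (2 with GC and length offsets), coupling factors 8 of 13 higher and 3 lower, and interferon signalling factors 15 of 25 higher and 1 lower (3 with GC and length offsets). Within 5 Mb of Terc 26 of 117 genes tested were higher and 31 lower, 48.7% in all against 52.5% of all genes.

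The largest single changes, among genes with a symbol other than a Gm, Rik or accession name, at least 5 CPM in a group and no overlap, included several outside these lists. Lrmda, a gene of melanocyte differentiation, had 10.1, 6.92 and 10.1 CPM in set 519 KO and 0.482, 0.858 and 0.767 CPM in WT libraries, the largest rise at 3.71 ± 0.24 (adjusted p 4.6e-15). It averaged 11.7 and 9.30 CPM in the 2 groups of 1-month WT cultures and 0.718 CPM in 6-month WT multinucleated cultures. Lyl1, a transcription factor of blood progenitors, rose by 3.06 ± 0.17 and Cebpb, of the C/EBP family, by 2.32 ± 0.19. Npy, a neuropeptide, had 101, 105 and 85.7 CPM in set 519 KO and 18.4, 16.2 and 17.0 CPM in WT libraries. Cd207, the lectin langerin, rose by 2.43 ± 0.08 to 119, 124 and 108 CPM in set 519 KO, against 21.3, 24.7 and 19.0 CPM in WT libraries. Serpinb9b and the chemokine genes have close relatives that can share reads. The largest fall was that of Arg1, arginase 1, at 0.633, 0.692 and 0.427 CPM in set 519 KO and 18.4, 39.7 and 35.9 CPM in WT libraries, by 5.79 ± 0.56 (adjusted p 1.4e-10). Adm, the vasodilator adrenomedullin, had 0.543, 0 and 0 CPM in set 519 KO and 3.32, 5.52 and 6.47 CPM in WT libraries. Col2a1, the collagen of cartilage, fell by 4.44 ± 0.14 to 2.17, 4.15 and 1.88 CPM in set 519 KO, against 58.8, 49.6 and 52.7 CPM in WT libraries. Tjp1, a tight junction protein, fell by 3.65 ± 0.29.

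The difference from 20-month WT holds donor age as well as genotype, so the same set 519 KO libraries were set beside 6-month WT multinucleated cultures, and 20-month WT beside 6-month WT. These comparisons share libraries, and their values stand side by side only. Set 519 KO differed from 6-month WT in 7905 genes (51.6%), and 20-month WT differed from 6-month WT in 2188 genes (14.3%). Cdkn2a was higher in set 519 KO than in 6-month WT (1.99) and lower in 20-month than in 6-month WT (-0.84, adjusted p 2e-05), with 14.5, 13.7 and 15.1 CPM in 6-month WT libraries. Stromal markers had a median of -1.70 in set 519 KO over 6-month WT and of 0.74 in 20-month over 6-month WT, where 17 of 23 were higher, against 7.39% of all genes. In set 519 KO over 6-month WT, hypoxia and glycolysis genes had a median of -0.09, the 441 genes of 2-day cultures -1.69 and NRF2 genes 0.62. In 20-month over 6-month WT the same lists had medians of 0.32, 0.63 and -0.28. The 441 genes were chosen as low in these same 6-month WT multinucleated libraries. That choice can raise both of their medians here, so no direction with age is read from them. For interferon-stimulated genes both medians were above 0, at 0.97 in set 519 KO over 6-month WT and 0.55 in 20-month over 6-month WT, where 35 of 46 were higher. Set 519 KO over 6-month WT gave medians of 0.95 for MHC class I, -0.55 for cell cycle, 0.54 for lysosomal and 0.24 for resorption genes. For 20-month over 6-month WT these medians were 0.29, -0.24, -0.01 and -0.03.

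**Figure D4:**
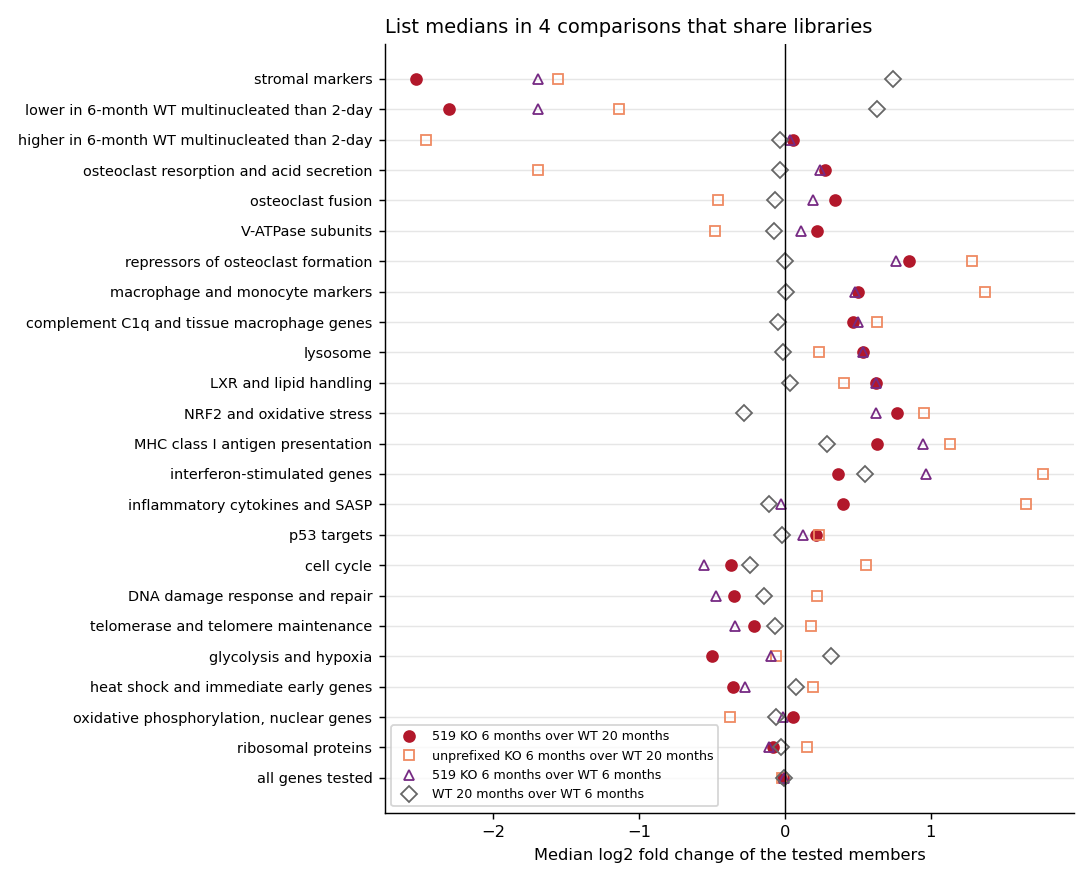
Median log2 fold change of each list in 4 comparisons that share libraries, with set 519 6-month KO over 20-month WT as filled red circles. The lists of genes higher and lower in 6-month WT multinucleated cultures were chosen on libraries that also serve as the 6-month WT reference. For resorption genes the red circle (0.28) lies right of 0 and the unprefixed KO square (-1.69) left of it, and for interferon-stimulated genes the square (1.77) lies far right of the circle (0.37).

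The 3 unprefixed 6-month KO libraries, of the same genotype, strain and age by their labels, differed from the set 519 KO libraries in 7511 of 15310 genes (49.1%). Against the same 20-month WT libraries, 9923 genes (64.8%) differed for unprefixed KO. Resorption genes had a median of 0.28 in set 519 KO and -1.69 in unprefixed KO, and all 23 were higher in set 519 KO than in unprefixed KO by the test of the difference, against 22.6% of all genes. Itgb3 had 465, 468 and 470 CPM in set 519 KO libraries and 21.8, 22.1 and 24.7 CPM in unprefixed KO libraries, a difference of 4.35 (adjusted p 1.6e-31). Of the 223 genes higher in multinucleated WT cultures, 168 were higher and 1 lower in set 519 KO than in unprefixed KO. All 46 interferon-stimulated genes and all 42 cell cycle genes were lower in set 519 KO than in unprefixed KO, against 26.5% of all genes. Irf7, for example, had 91.0, 92.2 and 88.1 CPM in set 519 KO and 228, 267 and 288 CPM in unprefixed KO libraries. Against 20-month WT, cell cycle genes had a median of -0.37 in set 519 KO and 0.55 in unprefixed KO. Against 20-month WT, set 519 KO had medians of 0.77 for NRF2 genes, -2.53 for stromal and 0.50 for macrophage markers, and a change of 2.83 for Cdkn2a. Unprefixed KO had 0.95, -1.56, 1.37 and 2.23 for the same items.

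**Figure D5:**
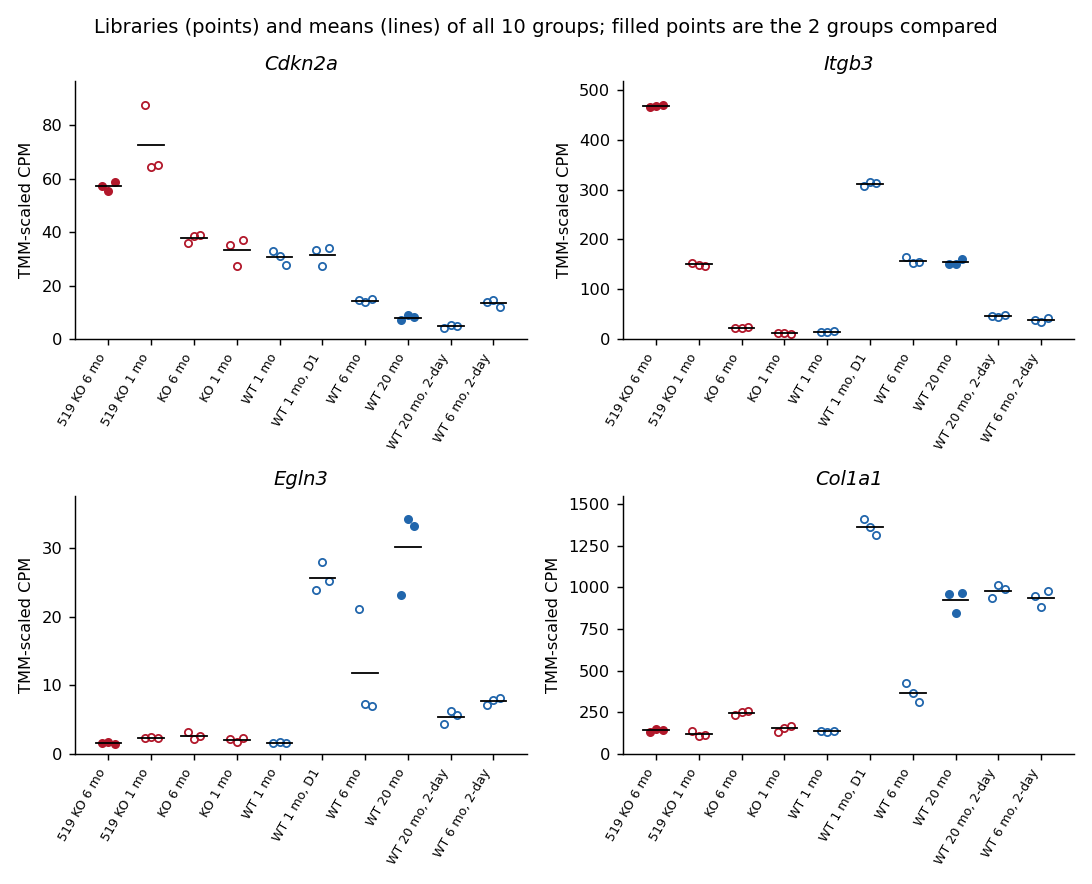
Levels of Cdkn2a, Itgb3, Egln3 and Col1a1 in TMM-scaled CPM in all 10 groups (KO red, WT blue), with points for libraries, lines for means and filled points for the 2 groups compared. Set 519 6-month KO libraries have the highest Itgb3 of any group (465 to 470 CPM) and, with 1-month set 519 KO, the highest Cdkn2a, and 20-month WT libraries have the highest mean Egln3 (30.2 CPM).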

How the data were processed

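The authors deposited raw counts, whole numbers with no normalization, for each gene in each library. Per the file headers, featureCounts 1.6.0 counted read pairs aligned by STAR over Ensembl 88 gene exons of GRCm38, while the submitters' processing notes name HTSeq and mm10. The headers were followed. No strand or multimapping option is recorded, so antisense overlaps cannot be told apart and near-identical genes are uncertain. Symbols matched 99.39% of 50686 gene IDs.

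Counts of all 30 libraries were scaled by TMM and fitted with 1 coefficient per group in edgeR 4.0.16 (limma 3.58.1, R 4.3.3). filterByExpr kept 15310 genes and removed 35376. All adjusted p are Benjamini-Hochberg values of edgeR's quasi-likelihood test over these genes, with a threshold of 0.05. The common biological coefficient of variation was 0.061. In simulated counts for this comparison, over 15310 genes, 24, 36, 45 and 46 of 50 genes changed by 1.5, 2, 4 and 8-fold were recovered, and 7 of 15110 unchanged genes were called. The unchanged genes had the same simulated level in every group and no GC trend. The simulation thus does not measure error under a change as broad as the one called here. Replicate pairs differed by more than sampling noise (chi-square per degree of freedom 1.28 to 3.04). Limits for a count of 0 are 3 counts and cover counting error only.

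The members and gene lists were chosen with earlier results of these data known. Named were fixed genes, the 15 largest rises and 15 largest falls (at least 5 CPM in a group, no overlap), up to 4 members per list, and members of counts of 5 or fewer. Adam12, Cdkn1b, Cdkn2b, Csf1, Gla, Prdx1, Lmnb1, Pdgfra, Mmp14, Slc9b2 and Rufy4 were added after their values were seen. Alternatives were RLE scaling, DESeq2 1.42.0, no filter, a 6-library fit, thinned counts, a replicate block and leaving out each library. Offsets for GC content and length, and leaving out the genes of 2-day cultures, were chosen after seeing the data. Deviations of libraries that share a replicate number correlated at -0.00871 and 0.0189, so the numbers were not taken to pair samples. Results of some genes are not reported here.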

Additional observations from a re-analysis of the deposited data

Results flagged for a closer look

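For 15 named genes, set 519 KO and unprefixed 6-month KO were called in opposite directions against the same 20-month WT libraries, and the difference between the 2 KO sets was itself called by at least 2-fold (edgeR's quasi-likelihood test, adjusted p at most 1e-09). Both KO sets share genotype, strain and age by their labels. Values below are log2 differences of set 519 KO minus unprefixed KO. Of 3 KO libraries in each set, all 3 of set 519 lay on the same side of all 3 unprefixed ones for each gene. Genes picked by a called 2-fold difference are likely to separate in this way, so the separation adds no support. How many of all genes meet the rule was not counted, and 49.1% of genes were called between the KO sets.

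Genes of osteoclast function were higher in set 519 KO. The difference was 6.76 for Calcr, with 82.9, 82.3 and 92.1 CPM in set 519 KO libraries and 0.737, 0.697 and 0.92 CPM in unprefixed KO libraries. It was 4.35 for Itgb3, 4.07 for Mmp9, 3.58 for Acp5, 2.53 for Ckb, 1.85 for Dcstamp and 1.18 for Tcirg1. Sphk1, a sphingosine kinase, differed by 3.24, the endothelial gene Vwf by 1.33 and the histone gene Hist1h2bc by 1.20.

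Il1b, the cytokine interleukin-1 beta, differed by -5.48, Ier3 by -2.24 and Fos by -1.17. Chek1 and Dkc1 differed by -1.54 and -1.03. Il1b fell by 2.47 in set 519 KO against 20-month WT, while unprefixed KO was higher than the same WT libraries by 3.01.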

How the results depend on the processing

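The number of genes past the threshold was 8111 with RLE scaling, 7986 with DESeq2, 7738 with no filter, 8538 in the 6-library fit, 7185 with thinned counts, 7359 with GC and length offsets and 7712 without the genes of 2-day cultures, against 8040 in the reported fit. Leaving out 1 library gave 7101 to 7518, and with the 2-fold rule 1742 to 1827. With the 2-fold rule the other settings gave 1539 to 1899, except the thinned counts, which gave 1168 against 1857; fewer genes could be tested there. The replicate block gave 7952 genes and 1844 with the 2-fold rule; the replicate numbers are only shared numbers. With GC and length offsets mt-Cytb turned to 0.017 (adjusted p 0.79), mt-Nd2 to 0.065 (adjusted p 0.25) and H2afx to -0.096 (adjusted p 0.36), Slc9b2 to 0.124 (adjusted p 0.12) and Src, which had not passed, to -0.242; Mmp9 (0.076, adjusted p 0.27), mt-Nd5, mt-Nd6, Atp6v0d2, Cyld, E2f1, Cdt1, Xrcc1 and Xrcc3 no longer passed, and Itgav and Cdh5 did. Ccl5 did not pass with thinned counts or without WT replicate 2 or set 519 KO replicate 4, Il1b without set 519 KO replicate 3 or 4, and H2afx with thinned counts or without WT replicate 4. Ocstamp passed in the 6-library fit (adjusted p 0.0016). Single calls of Xrcc1, Rrm2, Fcgr1, Slc9b2, Gstp1 and Tert also ended, and Cdh5 and Thy1 passed, under settings given with these genes above. The smallest library, set 519 KO replicate 3 with 6067219 counts, limits low genes most.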
